A study of Homo sapiens with 54 samples.

Results

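The arrays compared here measured HT-29 cells 4 h after TNF was given at 100 ng/ml or at 5 ng/ml, a 20-fold difference in concentration. HT-29 is an established human colorectal adenocarcinoma line. The arrays were chosen by their labels: 12 of the 54 arrays of the series, 6 at each TNF dose, with 2 arrays labelled as biological replicates in each group. The groups at 100 ng/ml received TNF alone, TNF with 100 ng/ml EGF, or TNF with 500 ng/ml insulin. The groups at 5 ng/ml received TNF alone, TNF with 1 ng/ml EGF, or TNF with 5 ng/ml insulin. Untreated cells, EGF at 100 ng/ml alone and insulin at 500 ng/ml alone, 2 arrays each at 4 h, are set beside them where a level without TNF helps. Every culture, the untreated ones included, had been kept with interferon-gamma at 200 U/ml for 24 h beforehand, so the comparison is between TNF doses in interferon-primed cells of 1 tumour line. The dose of EGF or insulin differed together with that of TNF in the EGF pair and the insulin pair, and in these pairs the 2 cannot be told apart. The TNF-alone pair is the only one in which TNF dose alone differed.

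TNF is an inflammatory cytokine that binds TNFR1 (TNFRSF1A) on epithelial cells. The receptor complex activates the IkB kinase and mitogen-activated protein kinases, IkB proteins are degraded, and NF-kB dimers such as RELA with NFKB1 enter the nucleus and induce chemokines, adhesion molecules and the pathway's own inhibitors. When NF-kB signalling is weak, the same receptor can recruit FADD and caspase-8 and kill the cell, and interferon-gamma priming makes HT-29 cells sensitive to this outcome.

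The deposited value of each probe set is a MAS5 signal, a linear fluorescence intensity scaled to the same mean on every array. The median signal was 119.7 to 146 on the arrays at 100 ng/ml and 123.4 to 146.1 on those at 5 ng/ml, and replicate arrays of a group correlated at 0.96 to 0.976 across probe sets. The log2 ratio of the 3′ to the 5′ ACTB control probes, a sign of RNA quality, was −0.35 to 0.127 on the arrays at 100 ng/ml and −0.474 to 0.332 on those at 5 ng/ml. Of 12 epithelial markers 9 lay above the median signal, among them EPCAM, CDH1, KRT8, KRT18, KRT20 and LGALS4. The intestinal markers CDX1, CDX2 and CDH17 were near background, with mean signals of 26.95, 10.96 and 23.54. All 4 measured immune markers (PTPRC, CD3E, CD14, CD79A) were below the median, and their summed signal was 287.1 to 344.1 on the arrays at 100 ng/ml and 244.7 to 422.2 on those at 5 ng/ml. The summed signal of 4 stromal markers was 224.6 to 706 on the arrays at 100 ng/ml and 463 to 736.9 on those at 5 ng/ml, and that of 3 endothelial markers 87.9 to 189.5 and 144.8 to 297.8; any part of these in the results was not tested. As in any bulk sample, fewer cells of a kind and less RNA per cell cannot be told apart in what follows.

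At the higher dose some genes for secreted antiproteases, chemokines and inhibitors of NF-kB signalling were higher, among them PI3, CX3CL1 and TNFAIP3. Some members of the BMP and TGF-beta pathways and the ID regulators of transcription were lower, among them BMP4 and ID1. Early response genes went both ways, with KLF10 and FOS lower and FOSL1 higher. Of 8105 genes with a measured probe set, 148 (1.83%) passed the test over the 3 pairs, 63 higher (0.777%) and 85 lower (1.05%) at 100 ng/ml, and 7 and 5 of these changed at least 2-fold. The test was limma's moderated test on log2(signal + 12.46), with the mean of the 3 pair differences as the dose difference, n = 6 arrays per dose and a Benjamini-Hochberg adjusted p below 0.05 over 13422 probe sets. All differences below are on this log2 scale, which understates the change of dim genes, and are given with the standard error of the fit. The median difference over all genes was −0.05. The count was 93 without 100 ng/ml TNF alone replicate 1, 97 without 5 ng/ml TNF alone replicate 1 and 92 without 5 ng/ml TNF with insulin replicate 1. It was 76 (48 higher, 28 lower) after median centring of each array, 69 (46 higher, 23 lower) when only the 12 arrays were fitted and 112 (60 higher, 52 lower) after quantile normalization, so the split between higher and lower genes depends on the scaling and on the arrays fitted.

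The TNF-alone arrays showed the same directions. All 148 called genes had the same sign in that pair, and in all 148 the 2 arrays at 100 ng/ml did not overlap the 2 at 5 ng/ml, where 37.5% of all genes had no overlap. These 4 arrays are part of the test that chose the genes, so the counts are a description. Tested alone, the TNF-alone pair called 68 genes (0.839%), 27 higher (0.333%) and 41 lower (0.506%). They included 25 of the 63 genes called higher and 34 of the 85 called lower over the 3 pairs. The TNF-alone count was 18 without 100 ng/ml replicate 1 and 17 and 22 without 5 ng/ml replicate 1 or 2, and 46 without 100 ng/ml replicate 2; each leaves 1 array on a side. The sign was the same in the EGF pair for 146 of the 148 genes and in the insulin pair for 147. The exceptions were RABGAP1L and TGIF1 in the EGF pair and CHAC1 in the insulin pair; RABGAP1L and TGIF1 were picked out after their values were seen. Across all 12 arrays, the 6 at 100 ng/ml lay entirely above or below the 6 at 5 ng/ml for 66 of the called genes, where 1.47% of all genes did so. All 12 arrays are part of the test that chose the genes, so these counts too are a description. The median size of the difference was 0.807 in the TNF-alone pair, 0.451 in the EGF pair and 0.495 in the insulin pair, and the TNF-alone difference was the largest of the 3 in 109 of the 148 genes.

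A check took the dose difference from the 8 arrays of the EGF and insulin pairs only. The spread still came from the fit of all 54 arrays, the TNF-alone ones included. These 8 arrays called 21 genes (0.259%), 11 higher (0.136%) and 10 lower (0.123%). In the TNF-alone arrays, which had no part in that difference, 20 of the 21 had the same sign and no overlap. Over all genes, 61.2% had the same sign and 37.5% had no overlap in either direction. Of the 21, 14 passed in the TNF-alone pair, against 0.839% of all genes. Both tests share 1 estimate of the spread, which favours genes of small spread in both. Among the genes described below, CX3CL1, PI3, SERPINA3, IL1RN, CXCL3, TNFAIP3, PLPP3, FOSL1, SGK1, ID1, ID2, TGFBR2, KLF11, PRR15L, SLC30A1, DKK1 and FADD passed with these 8 arrays, as did ALAS1, ENC1 and UXS1, which were picked out after their values were seen. The other genes named as passing over the 3 pairs did not pass with them. The mean difference of the EGF and insulin pairs was smaller than that of the 3 pairs by over 1.5 times for ID1 (−0.62), FOS (−0.43), CHAC1 (−0.09), HERPUD1 (−0.21), SPRY2 (−0.42), POLG2 (−0.59), ISG20 (0.30) and OASL (0.22). The exception in the TNF-alone arrays was YPEL5, picked out after its values were seen, at −0.59 in the EGF pair, −0.56 in the insulin pair and 0.22 in the TNF-alone pair.

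**Figure D1:**
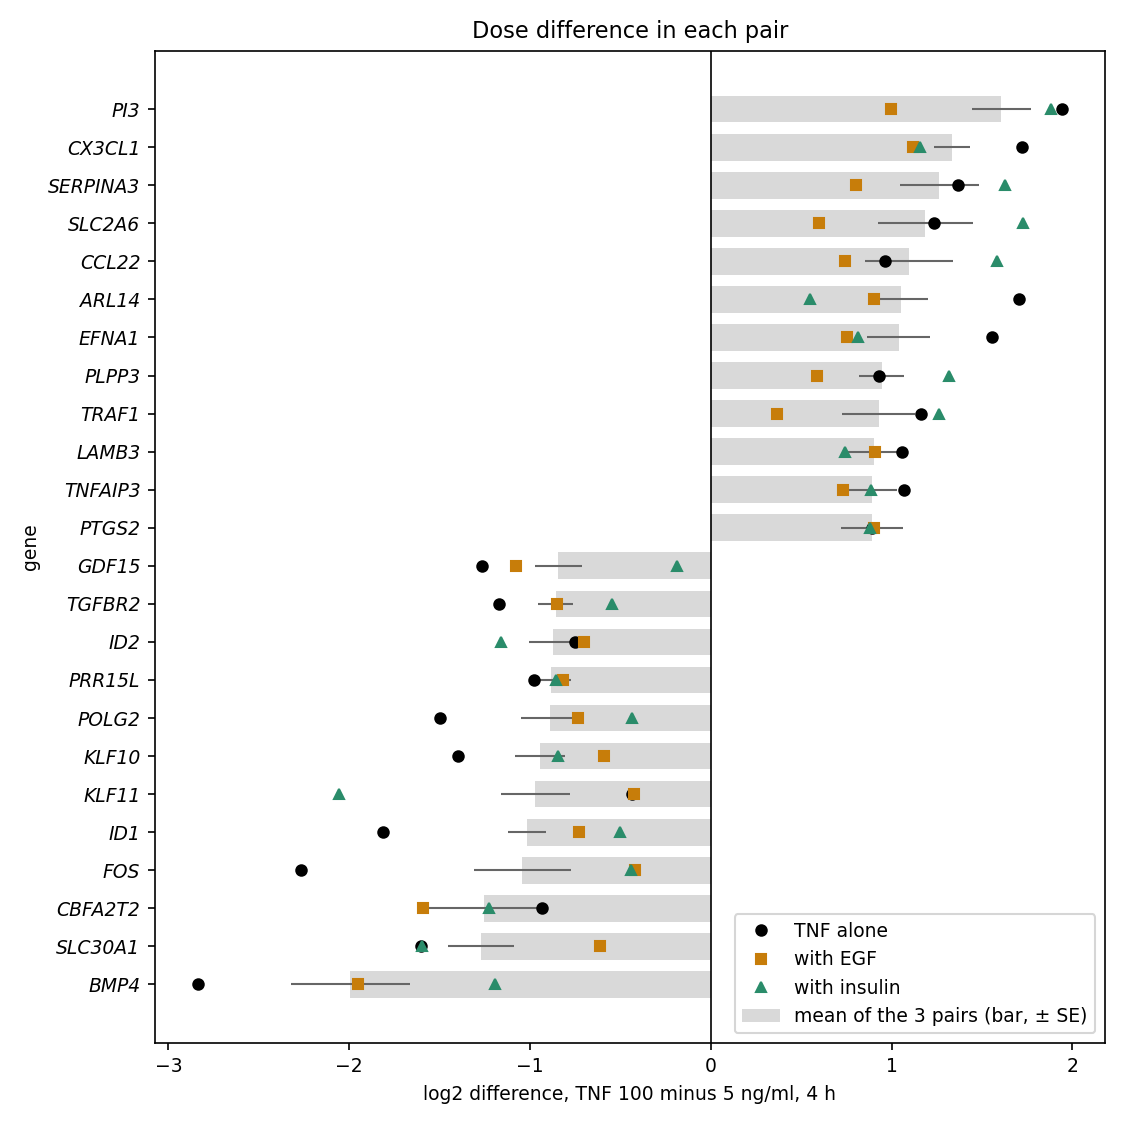
Log2 difference of TNF at 100 ng/ml minus 5 ng/ml at 4 h for the called genes with the 12 largest rises and 12 largest falls and the same sign in all 3 pairs. Grey bars show the mean of the 3 pairs with its standard error, black circles the TNF-alone pair, squares the EGF pair and triangles the insulin pair. All points of a gene lie on 1 side of 0, and the TNF-alone circle is the most extreme for BMP4 (−2.84), FOS (−2.27) and ID1 (−1.81), whereas KLF11 is most extreme in the insulin pair (−2.06).

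The largest rise was that of PI3, which encodes elafin, a secreted inhibitor of neutrophil elastase. Its signal was 2964 and 3398 in the arrays with 100 ng/ml TNF alone, 2413 and 2476 with EGF added and 3132 and 2481 with insulin added, against 999 and 669 with 5 ng/ml TNF alone, 1429 and 1040.4 with 5 ng/ml TNF and EGF and 759 and 734 with 5 ng/ml TNF and insulin. Every array at the higher dose exceeded every array at the lower one. The dose difference was 1.61 ± 0.16 (adjusted p = 8.05e-08), and 1.94 ± 0.28 in the TNF-alone pair (adjusted p = 0.000113). SERPINA3, the acute-phase inhibitor alpha-1-antichymotrypsin, was at 416 and 305 with 100 ng/ml TNF alone and 101 and 168 with 5 ng/ml, and its 6 arrays at the higher dose again lay above the 6 at the lower. It rose by 1.26 ± 0.22 over the 3 pairs (adjusted p = 0.000664) and did not pass in the TNF-alone pair (1.36, adjusted p = 0.111). These were the 2 of 16 measured antiprotease, acute phase and complement genes that passed (12.5%, where 1.83% of all genes did). The median of the list was 0.264.

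Chemokines and cytokines had 7 of 26 measured members higher (26.9%, where 0.777% of all genes were) and none lower. Their median difference was 0.349. CX3CL1, a membrane-bound chemokine that attracts T cells and monocytes, was at 4635 and 4703 with 100 ng/ml TNF alone, 3511 and 4050.3 with EGF and 3099 and 3339 with insulin, against 1359 and 1457 with 5 ng/ml TNF alone, 1743 and 1716 with 5 ng/ml TNF and EGF and 1344 and 1535 with 5 ng/ml TNF and insulin. The replicates stood close together and the doses did not overlap. It rose by 1.33 ± 0.10 (adjusted p = 7.86e-11) and was the only gene that passed in each of the 3 pairs separately, with 1.72 for TNF alone, 1.12 with EGF and 1.16 with insulin. CCL22, which recruits regulatory and Th2 T cells through CCR4, spanned 286 to 411 (median 319) at 100 ng/ml and 87.3 to 214 (median 158) at 5 ng/ml and rose by 1.10 ± 0.24 (adjusted p = 0.011). IL1RN, the secreted antagonist of the interleukin-1 receptor, spanned 888 to 1551 (median 1050.0) at 100 ng/ml and 540.0 to 731 (median 642) at 5 ng/ml and rose by 0.74 ± 0.09 (adjusted p = 1.64e-06). Neither gene's arrays overlapped between doses. Other kept probe sets of IL1RN were at 0.50, 0.53 and 1.26 and did not pass (adjusted p = 0.428, 0.0709 and 0.195). The neutrophil attractant CXCL2 rose by 0.61 ± 0.11 (adjusted p = 0.000905), the T cell attractant CXCL9 by 0.47 ± 0.08 (adjusted p = 0.000913), CCL20, the ligand of CCR6, by 0.86 ± 0.23 (adjusted p = 0.0476), and CXCL3, outside the naming rule, by 0.69. CCL22 did not pass without 5 ng/ml TNF with insulin replicate 1 (adjusted p = 0.0627), without 100 ng/ml TNF with EGF replicate 2 (0.0577) or when only the 4 h arrays were fitted (0.0925). CCL20 was lost on removal of any of 10 arrays, up to an adjusted p of 0.184 without 5 ng/ml TNF with EGF replicate 1, and after quantile normalization or median centring, with no pseudocount, no filter or no intensity trend.

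Several inhibitors inside the TNF receptor and NF-kB pathway were also higher. TNFAIP3 encodes A20, a ubiquitin-editing enzyme that shuts off signalling from the receptor complex. Its signal spanned 2372 to 3476 (median 3140.0) at 100 ng/ml and 1327 to 1813 (median 1687) at 5 ng/ml, without overlap, and it rose by 0.89 ± 0.13 (adjusted p = 8.02e-05). TNIP1, an A20-binding partner, was at 7096 and 5920.2 with 100 ng/ml TNF alone and 4277 and 4261 with 5 ng/ml, and rose by 0.47 ± 0.08 over the 3 pairs (adjusted p = 0.000664). CFLAR, the catalytically inactive homologue of caspase-8 that blocks death signalling, was at 6022 and 6279 with 100 ng/ml TNF alone and 3775 and 4038 with 5 ng/ml and rose by 0.44 ± 0.07 (adjusted p = 0.000316); 1 of its 8 other probe sets passed and all 8 had a positive difference. The adaptor TRAF1, a dim gene at 158 and 85.6 with 100 ng/ml TNF alone and 42.8 and 47.9 with 5 ng/ml, rose by 0.93 ± 0.20 (adjusted p = 0.00824). It was at 85.4 and 40.6 in untreated cells. Neither 100 ng/ml (0.84, adjusted p = 0.242) nor 5 ng/ml TNF alone (−0.32, adjusted p = 0.943) passed against these. With TNFAIP8 at 0.77 and the kinase RIPK2 at 0.48, both outside the naming rule, 6 of 19 measured members of the receptor complex and feedback list passed, none of them lower. This was 31.6% of the list, where 1.83% of all genes passed. Of 11 NF-kB subunits and IkB proteins, RELA rose by 0.43 ± 0.08 (adjusted p = 0.00288) and NFKBIA, the gene of IkB-alpha, by 0.45 ± 0.11 (adjusted p = 0.0253). For RELA, another kept probe set was at 0.53 and did not pass (adjusted p = 0.414). NFKBIA had 11084 and 9423 with 100 ng/ml TNF alone and 6318 and 6706 with 5 ng/ml, beside 2503 and 2546 in untreated cells. None of the 10 measured TNF receptor superfamily genes passed. TRAF1 was lost without 100 ng/ml TNF alone replicate 1 (adjusted p = 0.0677) and NFKBIA on removal of any of 8 arrays, up to 0.156 without 5 ng/ml TNF with insulin replicate 1. TRAF1, RELA and NFKBIA also missed the threshold when only the 12 arrays were fitted, with TRAF1 and NFKBIA lost on the 4 h arrays and NFKBIA under median centring.

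The promoters of these called genes are shown because NF-kB dimers bind a known short DNA motif. RefSeq promoter sequences (GRCh38.p14), running from 250 bases before to 50 bases after the annotated start, were found for 52 of the 63 higher and 73 of the 85 lower genes. The 10-base NF-kB consensus, searched on both strands, occurred in 13 of the 52 higher genes (25%), in 7 of the 73 lower genes (9.59%) and in 838 of the 6711 measured genes with a promoter (12.5%); over all 27305 genes of the promoter table the share was 9.16%. The 13 genes were ALAS1, CCL20, CCL22, CXCL2, CXCL3, GRB10, IFNGR2, ITPKC, LAMB3, NFKBIA, PPARD, TNFAIP3 and TNIP1. The sequences of 6 of these and of ID1, which fell, follow from 5′ to 3′ on the gene's strand in lower case, with the matches in capitals; the ID1 window holds none.
TNFAIP3 (chr6:137867009-137867308, plus strand): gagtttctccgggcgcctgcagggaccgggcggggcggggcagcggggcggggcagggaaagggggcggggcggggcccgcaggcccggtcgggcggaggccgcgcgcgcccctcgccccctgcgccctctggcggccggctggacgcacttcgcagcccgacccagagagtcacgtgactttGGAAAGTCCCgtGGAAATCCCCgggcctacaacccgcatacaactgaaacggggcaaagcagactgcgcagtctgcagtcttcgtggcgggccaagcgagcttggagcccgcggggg
NFKBIA (chr14:35404700-35404999, minus strand): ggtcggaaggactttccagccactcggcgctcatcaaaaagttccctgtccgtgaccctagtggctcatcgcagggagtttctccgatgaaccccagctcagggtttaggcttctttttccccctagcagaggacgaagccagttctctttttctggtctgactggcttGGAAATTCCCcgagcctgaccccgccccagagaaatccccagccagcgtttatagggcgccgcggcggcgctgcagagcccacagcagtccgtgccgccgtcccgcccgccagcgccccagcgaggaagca
TNIP1 (chr5:151080985-151081284, minus strand): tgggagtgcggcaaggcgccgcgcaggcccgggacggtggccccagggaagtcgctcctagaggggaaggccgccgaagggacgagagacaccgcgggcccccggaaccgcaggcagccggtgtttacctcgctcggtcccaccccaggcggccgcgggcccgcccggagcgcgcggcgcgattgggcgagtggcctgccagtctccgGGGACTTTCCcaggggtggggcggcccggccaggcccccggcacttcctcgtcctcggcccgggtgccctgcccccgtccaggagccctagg
CXCL2 (chr4:74099146-74099445, minus strand): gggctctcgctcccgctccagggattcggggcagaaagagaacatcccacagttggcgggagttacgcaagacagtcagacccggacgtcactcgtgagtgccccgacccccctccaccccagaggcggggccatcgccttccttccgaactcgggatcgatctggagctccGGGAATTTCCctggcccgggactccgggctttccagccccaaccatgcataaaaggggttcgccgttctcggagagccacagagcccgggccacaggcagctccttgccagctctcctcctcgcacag
CCL20 (chr2:227813592-227813891, plus strand): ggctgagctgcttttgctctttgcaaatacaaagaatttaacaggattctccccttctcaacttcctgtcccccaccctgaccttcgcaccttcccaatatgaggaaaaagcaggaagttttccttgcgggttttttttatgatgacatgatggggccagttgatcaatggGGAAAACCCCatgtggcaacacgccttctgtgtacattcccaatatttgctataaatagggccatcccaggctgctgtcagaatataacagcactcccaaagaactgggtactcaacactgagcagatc
CCL22 (chr16:57358533-57358832, plus strand): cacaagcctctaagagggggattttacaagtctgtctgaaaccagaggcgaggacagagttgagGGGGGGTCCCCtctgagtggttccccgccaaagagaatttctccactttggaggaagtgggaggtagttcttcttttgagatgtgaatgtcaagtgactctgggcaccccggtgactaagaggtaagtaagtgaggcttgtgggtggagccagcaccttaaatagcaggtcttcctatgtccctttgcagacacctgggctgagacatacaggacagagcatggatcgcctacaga
ID1 (chr20:31605039-31605338, plus strand): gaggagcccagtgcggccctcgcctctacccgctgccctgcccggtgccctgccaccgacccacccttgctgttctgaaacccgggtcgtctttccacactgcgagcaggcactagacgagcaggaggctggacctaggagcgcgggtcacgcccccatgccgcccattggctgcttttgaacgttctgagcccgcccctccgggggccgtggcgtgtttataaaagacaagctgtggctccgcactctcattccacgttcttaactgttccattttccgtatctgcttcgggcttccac
TNFAIP3 has 2 matches, GGAAAGTCCC and GGAAATCCCC, which begin 67 and 55 bases before the start. In NFKBIA, CXCL2 and CCL20 the match begins 81, 78 and 79 bases before it and in TNIP1 42 bases before it, whereas CCL22 has 2 overlapping matches that begin 186 and 185 bases before it. Where a gene has several promoters in the table, the first with a match is shown. The motifs were chosen after the gene values were seen, and 11 were searched. A form with a fixed run of T bases, which shares most of its matches in the higher genes with the consensus, was in 9 higher genes, 0 lower genes and 217 measured genes. The letters GGANNTTCC, which can overlap it, were in 10 of the 52 higher, 8 of the 73 lower and 460 of the 6711 measured genes, and the loosest form of the consensus in 47, 55 and 5308. The AP-1 type motif TGANTCA was in 8, 9 and 509, the CRE type motif TGACGTCA in 3, 1 and 267, and the CArG box consensus in 3, 0 and 122. The remaining 4 (GTCTAGAC, GCGTGGGCG, the composite SMAD1 site and a strict CArG box) each occurred in at most 1 gene of either called group, and in 11, 119, 18 and 5 of the measured genes. A match describes these letters only and shows no binding, and a window without one shows no lack of it.

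In 3 lists of interferon-related genes, 3 members passed between the doses, all higher. CXCL9, which rose by 0.47, was counted with the chemokines and is outside these lists. Of 32 type I interferon-stimulated genes 2 passed (6.25%, where 1.83% of all genes did): the exonuclease ISG20 rose by 0.46 ± 0.09 (adjusted p = 0.0038) and the antiviral OASL by 0.37 ± 0.09 (adjusted p = 0.0339). Of 24 interferon-gamma targets and IRF or STAT factors only IFNGR2 (4.17%), a chain of the interferon-gamma receptor, passed, at 0.44 ± 0.10 (adjusted p = 0.00751). Its signal was 5383 and 4261 with 100 ng/ml TNF alone and 3447 and 3005 with 5 ng/ml, beside 994 and 837 in untreated cells. None of 15 MHC class I presentation genes passed. The medians of these 3 lists were 0.118, 0.0427 and 0.092. OASL had another kept probe set, at 0.29, which did not pass (adjusted p = 0.461). OASL was lost on removal of any of 8 arrays, up to 0.203 without 5 ng/ml TNF with insulin replicate 1, with no filter, under median centring and on the 12 or the 4 h arrays alone; ISG20 was lost on the 12 arrays alone, and IFNGR2 without 100 ng/ml TNF alone replicate 1 (adjusted p = 0.0578).

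Surface, matrix and signalling genes made up the rest of the 12 largest rises. LAMB3, the beta-3 chain of laminin-332, was at 2559.9 and 2115 with 100 ng/ml TNF alone and 1165 and 1057 with 5 ng/ml. It rose by 0.90 ± 0.16 (adjusted p = 0.000755), the only one of 18 adhesion and protease genes to pass (5.56%, where 1.83% of all genes did). EFNA1, which encodes an ephrin, was at 1799 and 1449 with 100 ng/ml TNF alone and 572 and 512 with 5 ng/ml and rose by 1.04 ± 0.17 (adjusted p = 0.000391). In all 3 pairs the arrays at 100 ng/ml of both genes lay above those at 5 ng/ml. PTGS2, the inducible cyclooxygenase that makes prostaglandins, was nearly the same in each pair, with 0.89 for TNF alone, 0.90 with EGF and 0.88 with insulin (mean 0.89 ± 0.17, adjusted p = 0.00252). PLPP3, a lipid phosphate phosphatase, spanned 1269 to 1839 (median 1690.0) at 100 ng/ml and 711 to 976 (median 776) at 5 ng/ml and rose by 0.94 ± 0.12 (adjusted p = 7.01e-06). Both other probe sets of PLPP3 passed, at 1.05 and 1.41. SLC2A6, of the hexose transporter family, spanned 359 to 723 (median 498) at 100 ng/ml and 164 to 281 (median 212) at 5 ng/ml and rose by 1.19 ± 0.26 (adjusted p = 0.00943). The small GTPase gene ARL14 spanned 400.2 to 1130.0 (median 1007) at 100 ng/ml and 262 to 630.0 (median 379.7) at 5 ng/ml and rose by 1.05 ± 0.15 (adjusted p = 2.67e-05). The doses did not overlap for PLPP3 and SLC2A6 and did for ARL14. In the TNF-alone pair ARL14 (1.71) and EFNA1 (1.55) were among the 5 largest rises. SLC2A6 did not pass with no pseudocount (adjusted p = 0.0798).

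**Figure D2:**
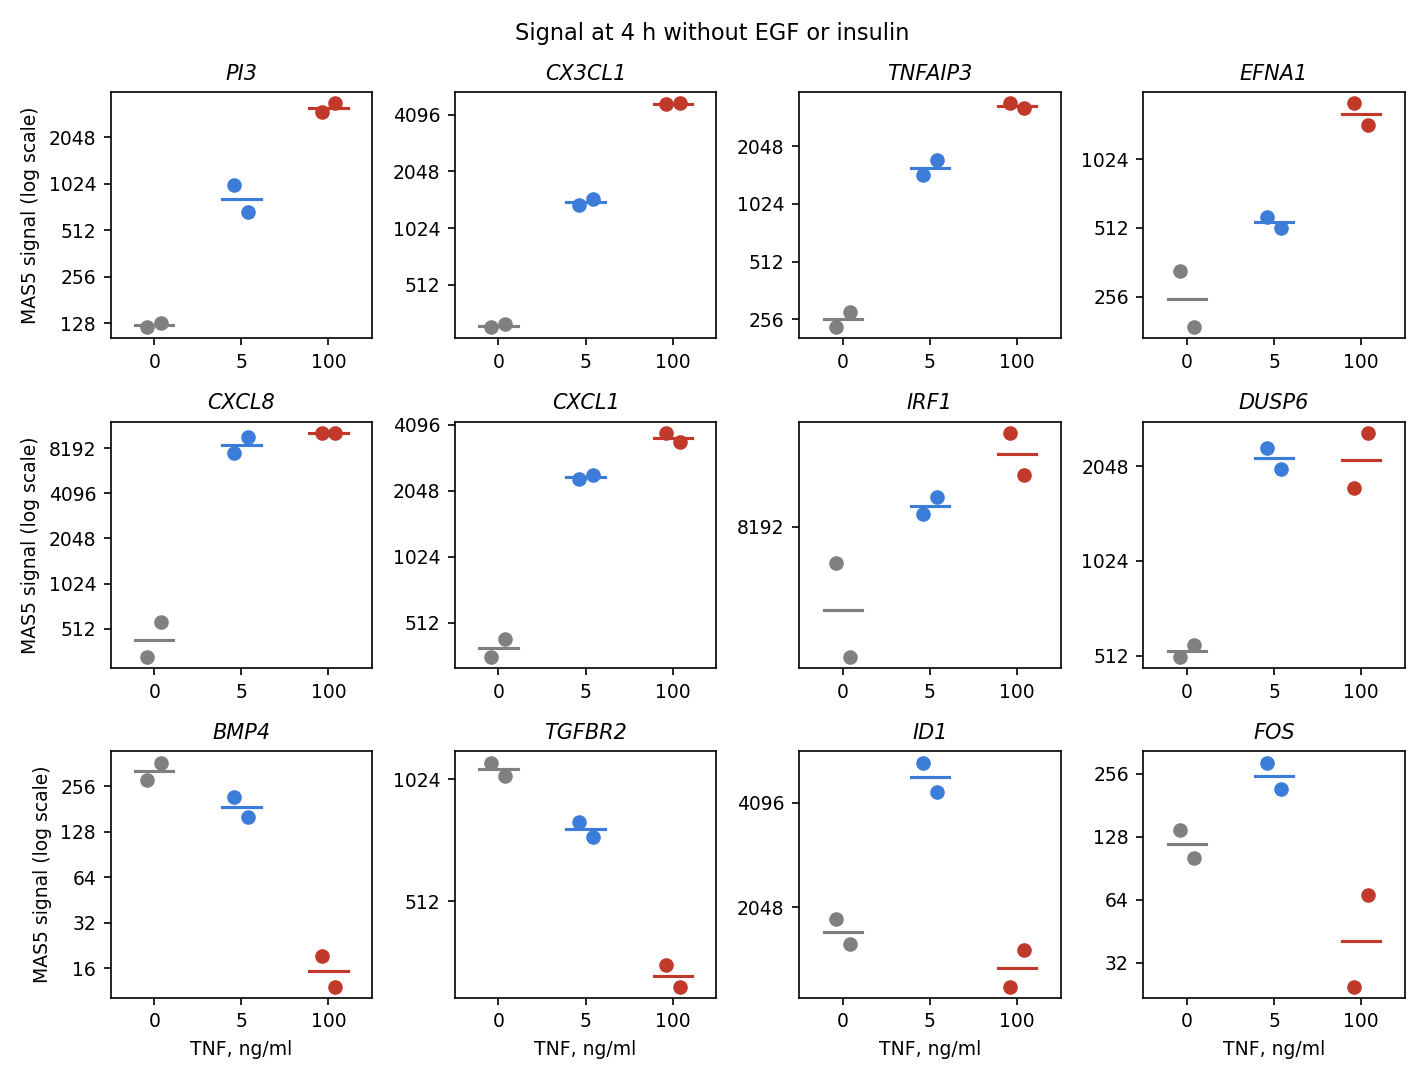
MAS5 signal (log axis, a separate range in each panel) of 12 genes at 4 h in untreated cells and with TNF alone at 5 and 100 ng/ml. Points are the 2 arrays of a group and bars their geometric mean. PI3, CX3CL1, TNFAIP3 and EFNA1 step up at both doses. CXCL8 and DUSP6, in the probe sets drawn, are already near their highest level at 5 ng/ml. BMP4 and TGFBR2 are lowest at 100 ng/ml, and ID1 and FOS are highest at 5 ng/ml.

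Some genes of the BMP and TGF-beta pathways were lower at the higher dose. Of 23 measured members of the list, which includes the ID genes, 6 passed, all lower (26.1%, where 1.05% of all genes were called lower). The median of the list was −0.149 against −0.05 over all genes. BMP4, a secreted ligand that drives SMAD1 and SMAD5 signalling, was at 19.4 and 12.1 with 100 ng/ml TNF alone, 46.9 and 36.3 with EGF and 56.9 and 31.6 with insulin, against 217 and 161 with 5 ng/ml TNF alone, 135 and 279.9 with 5 ng/ml TNF and EGF and 62.0 and 203 with 5 ng/ml TNF and insulin. Every array at 100 ng/ml lay below every array at 5 ng/ml, although replicates at 5 ng/ml with insulin differed widely, and the values at 100 ng/ml with TNF alone were near background. BMP4 differed by −1.99 ± 0.33 (adjusted p = 0.000329), the largest fall among called genes. TGFBR2, the type II TGF-beta receptor, was at 357 and 316 with 100 ng/ml TNF alone, 477 and 458 with EGF and 515 and 397 with insulin, against 805 and 739.6 with 5 ng/ml TNF alone, 922 and 792 with 5 ng/ml TNF and EGF and 776 and 572 with 5 ng/ml TNF and insulin. Its difference was −0.86 ± 0.10 (adjusted p = 6.69e-07), and it passed in the TNF-alone pair and in the EGF pair. ID1 and ID2 encode inhibitors of basic helix-loop-helix factors and are targets of BMP signalling. ID1 was at 1211 and 1544 with 100 ng/ml TNF alone and 5333 and 4395 with 5 ng/ml, beside 1893 and 1607 in untreated cells. Its difference over the 3 pairs was −1.02 ± 0.10 (adjusted p = 8.05e-08). Against untreated cells it was higher at 5 ng/ml (1.47, adjusted p = 8.46e-07) and did not pass at 100 ng/ml (−0.35, adjusted p = 0.43). The rise at 5 ng/ml and the dose difference share the arrays with 5 ng/ml TNF alone. ID2 was at 263 and 344 with 100 ng/ml TNF alone and 528 and 503 with 5 ng/ml, with −0.87 ± 0.14 over the 3 pairs (adjusted p = 0.000122). A dimmer ID2 probe set was at −0.55 and did not pass (adjusted p = 0.712). GDF15, a stress-induced member of the TGF-beta family, differed by −0.84 ± 0.13 (adjusted p = 0.000129), with −0.19 in the insulin pair, and the corepressor TGIF1, outside the naming rule, was at −0.42.

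Among early response genes, KLF10 and EGR1 were higher than in untreated cells at 5 ng/ml and lower at 100 than at 5 ng/ml with TNF alone. Both comparisons use the same 2 arrays with 5 ng/ml TNF alone, so high values there would favour both parts of this order. KLF10, a TGF-beta inducible zinc finger repressor, was at 711 and 1036 in untreated cells, 1756 and 1834 with 5 ng/ml TNF alone and 595 and 759 with 100 ng/ml. Its dose difference was −0.95 ± 0.14 (adjusted p = 6.44e-05). FOS, a subunit of AP-1, was at 137 and 102 in untreated cells, 289 and 215 with 5 ng/ml and 24.6 and 67.3 with 100 ng/ml TNF alone. It differed by −1.04 ± 0.27 between 100 and 5 ng/ml over the 3 pairs (adjusted p = 0.0359) and by −2.27 ± 0.46 with TNF alone (adjusted p = 0.0075). The array with 100 ng/ml TNF alone replicate 1 was the lowest. EGR1, a zinc finger early response factor, was at 171 and 241 in untreated cells, 616 and 648 with 5 ng/ml and 286 and 228 with 100 ng/ml TNF alone. It was higher than untreated at 5 ng/ml (1.58, adjusted p = 0.00103), lower at 100 than at 5 ng/ml with TNF alone (−1.27, adjusted p = 0.0298), and did not pass over the 3 pairs (−0.56 ± 0.17, adjusted p = 0.113). With a replicate block within each time EGR1 passed over the 3 pairs (adjusted p = 0.0245). Over the list of 28 AP-1 and early response genes 3 were higher and 2 lower, KLF10 and FOS being the lower ones. Together these were 17.9% of the list, where 1.83% of all genes passed. FOSL1, another AP-1 subunit, rose by 0.71 ± 0.11 (adjusted p = 9.69e-05) and the antiproliferative BTG1 by 0.51 ± 0.11 (adjusted p = 0.0109). BTG1 had another kept probe set, at 0.40, which did not pass (adjusted p = 0.14). FOS was lost on removal of any of 10 arrays, up to an adjusted p of 0.197 without 100 ng/ml TNF alone replicate 1, and under quantile normalization, median centring, a pseudocount of 50, no filter or the additive model of the 12 arrays; BTG1 was lost under median centring.

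The same order over the doses was seen in 2 stress genes that passed over the 3 pairs, CHAC1 and HERPUD1, and in DDIT4, which did not. The comparisons again share the arrays with 5 ng/ml TNF alone. CHAC1, a glutathione-degrading enzyme induced through ATF4, was at 219.7 and 244 in untreated cells, 827 and 707 with 5 ng/ml TNF alone and 126 and 227 with 100 ng/ml. HERPUD1, a factor of endoplasmic reticulum-associated degradation, was at 428 and 564 in untreated cells, 1545 and 1144 with 5 ng/ml and 737 and 495 with 100 ng/ml TNF alone. Both were higher at 5 ng/ml than in untreated cells, by 1.67 (adjusted p = 0.00364) and 1.41 (adjusted p = 1.12e-05). Over the 3 pairs CHAC1 differed by −0.76 ± 0.20 (adjusted p = 0.0467) and HERPUD1 by −0.51 ± 0.12 (adjusted p = 0.0112), and they were the 2 of 30 ATF4 and endoplasmic reticulum stress genes that passed. CHAC1 was lost on removal of any of 9 arrays, up to 0.227 without 100 ng/ml TNF alone replicate 1, and HERPUD1 without 5 ng/ml TNF alone replicate 1 (adjusted p = 0.0803) or 100 ng/ml TNF alone replicate 2 (0.0723). Under median centring and on the 12 arrays alone both missed the threshold, as did CHAC1 with a pseudocount of 50, no filter, quantile normalization or no intensity trend and HERPUD1 on the 4 h arrays.

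Of 26 measured ERK feedback genes, EGF receptor family genes and their ligands, 2 feedback genes were lower and EGFR itself was higher. Together these were 11.5% of the list, where 1.83% of all genes passed. SPRY2, an inhibitor of receptor tyrosine kinase signalling, was at 122 and 139.6 with 100 ng/ml TNF alone and 279 and 361 with 5 ng/ml, with −0.68 ± 0.13 over the 3 pairs (adjusted p = 0.0026). RGS2, which speeds up the shut-off of G protein signals, differed by −0.53 ± 0.10 (adjusted p = 0.00266). EGFR, the EGF receptor, was higher, by 0.58 ± 0.15 (adjusted p = 0.0402), and none of its 4 other probe sets passed. EGFR was lost on removal of any of 9 arrays, up to 0.196 without 5 ng/ml TNF alone replicate 2, and under quantile normalization or median centring, with no filter or no intensity trend and on the 12 or the 4 h arrays alone. SPRY2 was lost on the 12 arrays alone and RGS2 under median centring (adjusted p = 0.0648).

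Single members of other pathways passed, where 1.83% of all genes did. FADD, the adaptor that links death receptors to caspase-8, was at 678 and 594 with 100 ng/ml TNF alone, 583 and 744 with EGF and 815 and 822 with insulin, against 1204 and 1221 with 5 ng/ml TNF alone, 1138 and 1275 with 5 ng/ml TNF and EGF and 976 and 986 with 5 ng/ml TNF and insulin. The doses did not overlap, and FADD, with −0.68 ± 0.08 (adjusted p = 1.57e-06), was the only one of 22 apoptosis regulators to pass. DKK1, a secreted Wnt inhibitor, was the only one of 13 Wnt genes to pass, at 229 and 249.7 with 100 ng/ml TNF alone and 635 and 588 with 5 ng/ml (−0.81 ± 0.10 over the 3 pairs, adjusted p = 1.56e-06). SLC30A1, a zinc exporter induced by zinc, was the only one of 13 metallothionein and zinc transporter genes, at 66.5 and 151 with 100 ng/ml TNF alone and 372 and 298 with 5 ng/ml (−1.27 ± 0.18, adjusted p = 3.69e-05). All 3 were lower at the higher dose in each pair. Of 17 FOXO target and insulin pathway genes, the kinase SGK1 rose by 0.78 ± 0.11 (adjusted p = 2.9e-05), while the insulin receptor substrate IRS1 differed by −0.78 ± 0.16 (adjusted p = 0.00473) and the kinase subunit PIK3R3 by −0.43 ± 0.11 (adjusted p = 0.0499). CDKN1A, which encodes the cell cycle inhibitor p21, rose by 0.75 ± 0.19 (adjusted p = 0.0299) as the only one of 13 growth arrest genes, and thioredoxin reductase TXNRD1 by 0.38 ± 0.08 (adjusted p = 0.00945) as the only one of 14 redox genes. Of 19 intestinal differentiation genes the transcription factor CEBPD rose by 0.74 ± 0.14 (adjusted p = 0.00236) and the Notch target HES1 differed by −0.67 ± 0.12 (adjusted p = 0.000664). For HES1, another kept probe set was at −0.62 and did not pass (adjusted p = 0.137). None of 32 G1/S, 31 G2/M or 12 sterol genes passed, with list medians of −0.0838, −0.0173 and −0.0523. At the 1.83% of all genes, few or no calls would be looked for in lists of this size. PIK3R3 was lost on removal of any of 10 arrays (up to 0.257 without 100 ng/ml TNF with insulin replicate 1), CDKN1A on removal of any of 7 (up to 0.145 without 5 ng/ml TNF with EGF replicate 2), and TXNRD1 without 100 ng/ml TNF alone replicate 1 (0.083), 5 ng/ml TNF with insulin replicate 2 (0.0674) or 5 ng/ml TNF with EGF replicate 2 (0.0515). On the 12 arrays alone TXNRD1, IRS1, PIK3R3 and HES1 missed the threshold, and CDKN1A and PIK3R3 did so under median centring and on the 4 h arrays, where TXNRD1 and IRS1 also did. PIK3R3 was also lost with a pseudocount of 50, no filter, quantile normalization or no intensity trend. Its other kept probe set went the other way, at 0.23, and did not pass (adjusted p = 0.967).

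**Figure D3:**
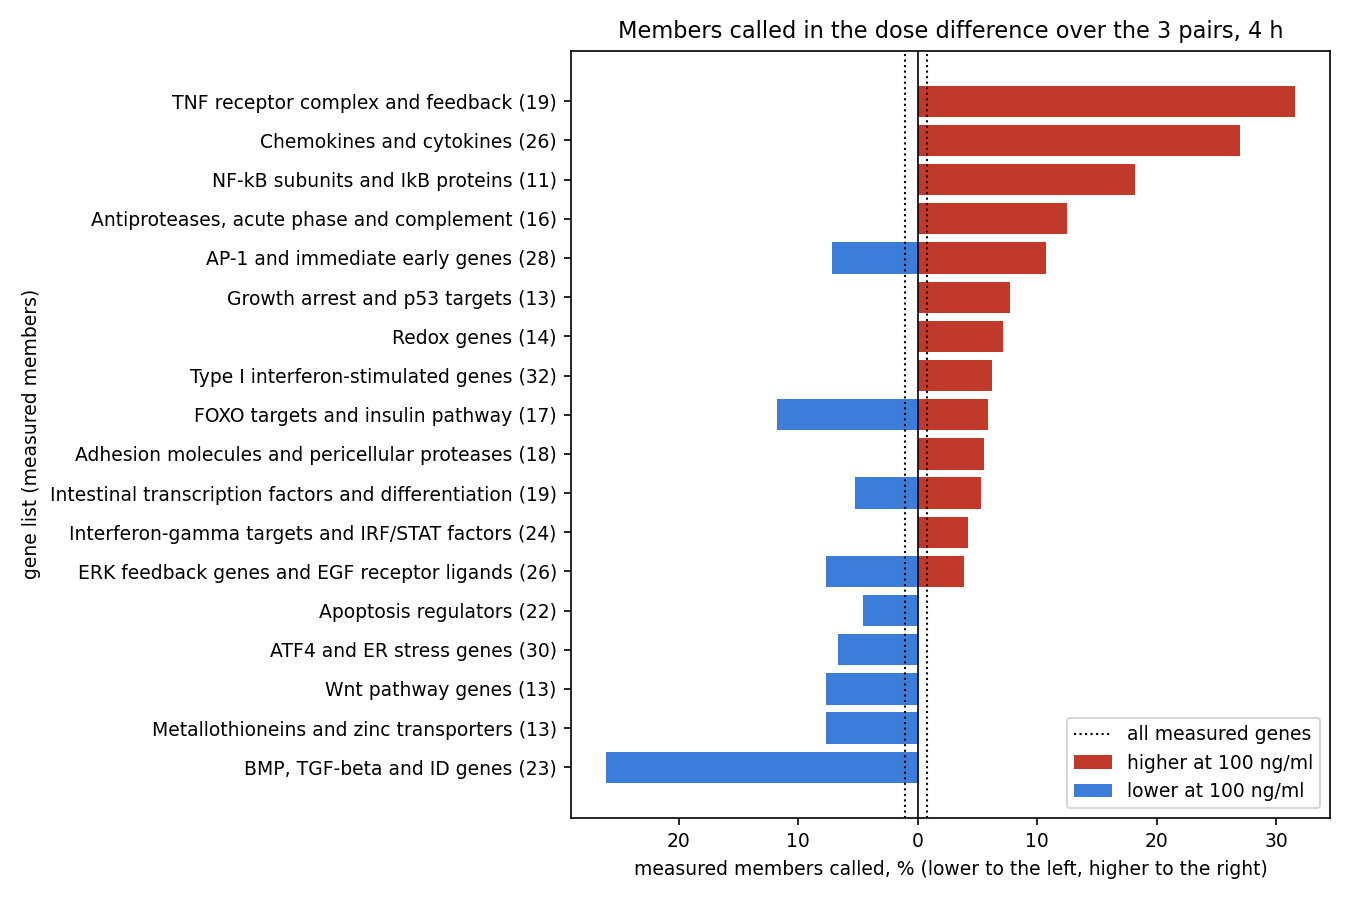
Share of the measured members of each gene list called higher (right, red) or lower (left, blue) at 100 ng/ml over the 3 pairs at 4 h, with the number of measured members in brackets; lists with no call are not drawn. Dotted lines mark the shares over all genes, 0.777% higher and 1.05% lower. The receptor complex list has 6 of 19 members higher, chemokines 7 of 26, and the BMP, TGF-beta and ID list 6 of 23 lower.

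Other large falls were in genes without a shared list. KLF11, a TGF-beta inducible repressor, was at 4.24 and 12.3 with 100 ng/ml TNF and insulin against 58.3 and 88.8 with 5 ng/ml TNF and insulin, and at 92.6 and 56.4 with 100 ng/ml TNF alone against 99.9 and 105 with 5 ng/ml. Its signals with 100 ng/ml TNF and insulin were below the 12.46 added before taking logs, so the size of the difference is not well determined: the mean of the 3 pairs was −1.46 with no pseudocount and −0.54 with a pseudocount of 50. With 12.46 added, the difference was −2.06 in the insulin pair (adjusted p = 0.00157) and −0.44 in the TNF-alone pair, and the test of the insulin pair minus the TNF-alone pair did not pass (−1.62 ± 0.47, adjusted p = 1). The mean was −0.97 ± 0.19 (adjusted p = 0.00288). PRR15L was about equally lower in each pair (−0.88 ± 0.11, adjusted p = 2e-06). The accessory subunit of mitochondrial DNA polymerase, POLG2, differed by −0.89 ± 0.16 (adjusted p = 0.000905) and the corepressor CBFA2T2 by −1.25 ± 0.31 (adjusted p = 0.0255). A dimmer CBFA2T2 probe set was at −0.70 and did not pass (adjusted p = 0.33). CBFA2T2 was lost on removal of any of 8 arrays, up to 0.162 without 100 ng/ml TNF with EGF replicate 1, and under median centring. It, KLF11 and POLG2 missed the threshold on the 12 arrays alone, and CBFA2T2 and KLF11 on the 4 h arrays.

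Some known TNF targets did not pass between the doses in the main fit. CXCL8, which encodes the neutrophil attractant interleukin-8, was at 333 and 565 in untreated cells, 7599 and 9733 with 5 ng/ml TNF alone and 10275 and 10327 with 100 ng/ml. It was 4.53 above untreated at 100 ng/ml and 4.27 above untreated at 5 ng/ml, and the dose difference was 0.33 ± 0.19 (adjusted p = 0.699). A dimmer CXCL8 probe set was at 0.73 and did not pass either (adjusted p = 0.163). CXCL1 had a dose difference of 0.43 ± 0.14 (adjusted p = 0.157), CXCL10 of 0.16 ± 0.15 (adjusted p = 0.915) and the ERK phosphatase DUSP6 of 0.20 ± 0.19 (adjusted p = 0.917). Other kept probe sets of DUSP6 were at 0.20 and 0.74 and did not pass (adjusted p = 0.781 and 0.351). The adhesion molecule ICAM1 was at 0.51 ± 0.14 (adjusted p = 0.0592) for the probe set used, while another of its probe sets passed at 0.45 (adjusted p = 0.00874), and the one used passed with a stricter filter on low signal (0.0394). IRF1, the interferon-induced factor, was at 0.10 ± 0.10 (adjusted p = 0.926), MYC at −0.15 ± 0.14 (adjusted p = 0.917) and the receptor gene TNFRSF1A at 0.01 ± 0.16 (adjusted p = 0.998). A missed threshold does not show that the doses act alike. BIRC3 and SOD2 had no kept probe set with 1 gene symbol and were not analysed.

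Set against untreated cells, TNF alone at 100 ng/ml called 404 genes (4.98%), 239 higher (2.95%) and 165 lower (2.04%). At 5 ng/ml it called 179 genes (2.21%), 157 higher (1.94%) and 22 lower (0.271%). Both comparisons use the same 2 untreated arrays, so their values are given side by side and their overlap is no result. The 63 genes called higher between the doses had a median of 1.63 above untreated cells at 100 ng/ml and 0.862 at 5 ng/ml. The 85 genes called lower had a median of −0.77 at 100 ng/ml and −0.03 at 5 ng/ml. Only FUT4 and KLF11 of these 85 passed as lower at 5 ng/ml, FUT4 being picked out after its values were seen, and 51 of the 85 passed as lower at 100 ng/ml. The 63 and the 85 were chosen by the dose difference, in part from the TNF-alone arrays that are compared with untreated cells here. Part of the gap between the medians at 100 and 5 ng/ml, in either set, is fixed by that choice. For the 85 it favours higher values at 5 ng/ml and lower ones at 100 ng/ml. For the 63 it favours the reverse. A further 7 of the 85 passed as higher than untreated at 5 ng/ml, namely ID1, KLF10, CHAC1, HERPUD1, TGIF1, SOS1 and ARMCX3, the last 3 outside the naming rule. Without 100 ng/ml TNF alone replicate 1 or 2 the count at 100 ng/ml was 215 or 268, and without 5 ng/ml TNF alone replicate 1 or 2 that at 5 ng/ml was 97 or 93.

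EGF alone at 100 ng/ml, set against untreated cells, called 5 of the 63 genes higher at the higher TNF dose as higher. It called 5 of the 85 lower genes as higher and 1 as lower. Of the 63, CDKN1A rose by 2.58 (adjusted p = 6.18e-06), ARL14 by 1.54 (0.000686), SGK1 by 1.21 (0.000285), FOSL1 by 1.05 (0.00181) and CX3CL1 by 0.74 (0.0376). Of the 85, ID1, FOS, CHAC1, DKK1 and TGIF1 were higher and PRR15L was lower. ID1 was at 8019 and 6782 with EGF alone and 1893 and 1607 in untreated cells, a rise of 2.07 ± 0.18 (adjusted p = 4.63e-09). FOS, EGR1 (not among the 85), CHAC1 and DKK1 rose by 2.09, 1.96, 1.55 and 1.70, with adjusted p of 0.0229, 0.000165, 0.029 and 5.68e-08. In the EGF pair, where the higher TNF dose came with the higher EGF dose, the dose difference of FOS was −0.42 and that of ID1 −0.73, against −2.27 and −1.81 with TNF alone. Over all genes, 39 (0.481%) passed with EGF alone, 35 higher (0.432%) and 4 lower (0.0494%). No gene passed the test of the EGF pair minus the TNF-alone pair in limma, where 500 of 13422 probe sets had an unadjusted p below 0.05, so a smaller dose difference in the EGF pair was not shown for any single gene.

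By itself the EGF pair called 9 genes (0.111%). CX3CL1, IL1RN and SAMD9 were higher (0.037%), and TGFBR2, FADD, DKK1, GDF15, ASNS and PCK2 lower (0.074%). ASNS, asparagine synthetase, was at −0.89 in the EGF pair, 0.18 with TNF alone and 0.16 in the insulin pair, and PCK2, the mitochondrial form of phosphoenolpyruvate carboxykinase, at −0.94, 0.22 and 0.09. SAMD9, ASNS and PCK2 were picked out after their values were seen. The count was 2 without replicate 1 of 100 ng/ml TNF with EGF, 2 without replicate 1 of 5 ng/ml TNF with EGF, and 0 without replicate 2 of the same group.

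The insulin pair called 8 genes (0.0987%), CX3CL1, PI3 and PLPP3 higher (0.037%) and SLC30A1, ID2, KLF11, HBP1 and KLHL24 lower (0.0617%), the last one outside the naming rule. HBP1, a transcriptional repressor, was at 298 and 279.6 with 100 ng/ml TNF and 500 ng/ml insulin against 536 and 706 with 5 ng/ml of each. With TNF alone it was at 689.7 and 701 at 100 ng/ml and 602 and 594 at 5 ng/ml, and insulin alone at 500 ng/ml gave 214 and 176 against 535 and 755 in untreated cells. Insulin alone thus differed from untreated by −1.65 ± 0.18 (adjusted p = 5.18e-07), and the low values were those of the arrays with the high insulin dose, with or without TNF. DDIT4, an inhibitor of mTOR complex 1 induced by stress, was at 2347 and 2548 with 100 ng/ml TNF and insulin against 1244 and 2135 with 5 ng/ml of each, and at 439.8 and 709.6 with 100 ng/ml TNF alone against 1662 and 1379.7 with 5 ng/ml. The insulin pair minus the TNF-alone pair passed for 4 genes (0.0494%), DDIT4, CHAC1 and ID1 higher (0.037%) and HBP1 lower (0.0123%). None passed without 100 ng/ml TNF alone replicate 1, 5 ng/ml TNF alone replicate 1, 5 ng/ml TNF with insulin replicate 1 or either array of 100 ng/ml TNF with insulin. The insulin pair's own count was 5 without 100 ng/ml TNF with insulin replicate 1, 17 without its replicate 2 and 2 without 5 ng/ml TNF with insulin replicate 2.

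The dose difference was also read at 8 and 16 h in the same 3 pairs, where 117 (1.44%) and 431 genes (5.32%) passed. At 8 h 0.728% of genes were higher and 0.716% lower, and at 16 h 2.34% and 2.97%. The 63 genes higher at 4 h had a median of 0.613 at 4 h, 0.445 at 8 h and 0.433 at 16 h, and 29 and 32 of them passed at 8 and 16 h. The 85 lower genes had medians of −0.561, −0.204 and −0.114, and 6 and 8 of them passed later. As they were chosen at 4 h, a smaller value at other times is in part fixed by that choice. The 16 h minus 4 h difference itself passed for 34 genes (0.419%, with 0.259% higher and 0.16% lower), 2 of the 63 (CX3CL1 and SRSF5, the second outside the naming rule) and 10 of the 85, and the count was 22 without 100 ng/ml TNF with EGF replicate 2. BMP4 was at −1.99 at 4 h, −0.40 at 8 h and 0.82 at 16 h (16 minus 4 h 2.82 ± 0.47, adjusted p = 0.00122), DKK1 at −0.81, −0.24 and 0.28 (adjusted p = 1.89e-05), and FADD at −0.68, −0.49 and 0.08 (adjusted p = 0.000456). PRR15L, at −0.88, −0.83 and −0.72, passed at every time. Among the rises PI3 was at 1.61, 1.42 and 1.28 and TNFAIP3 at 0.89, 0.69 and 0.86, passing each time, whereas EFNA1 was at 1.04, 0.11 and 0.13. CXCL8, which did not pass at 4 h, was at 0.48 at 8 h and at 1.30 at 16 h (adjusted p = 2.48e-05).

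**Figure D4:**
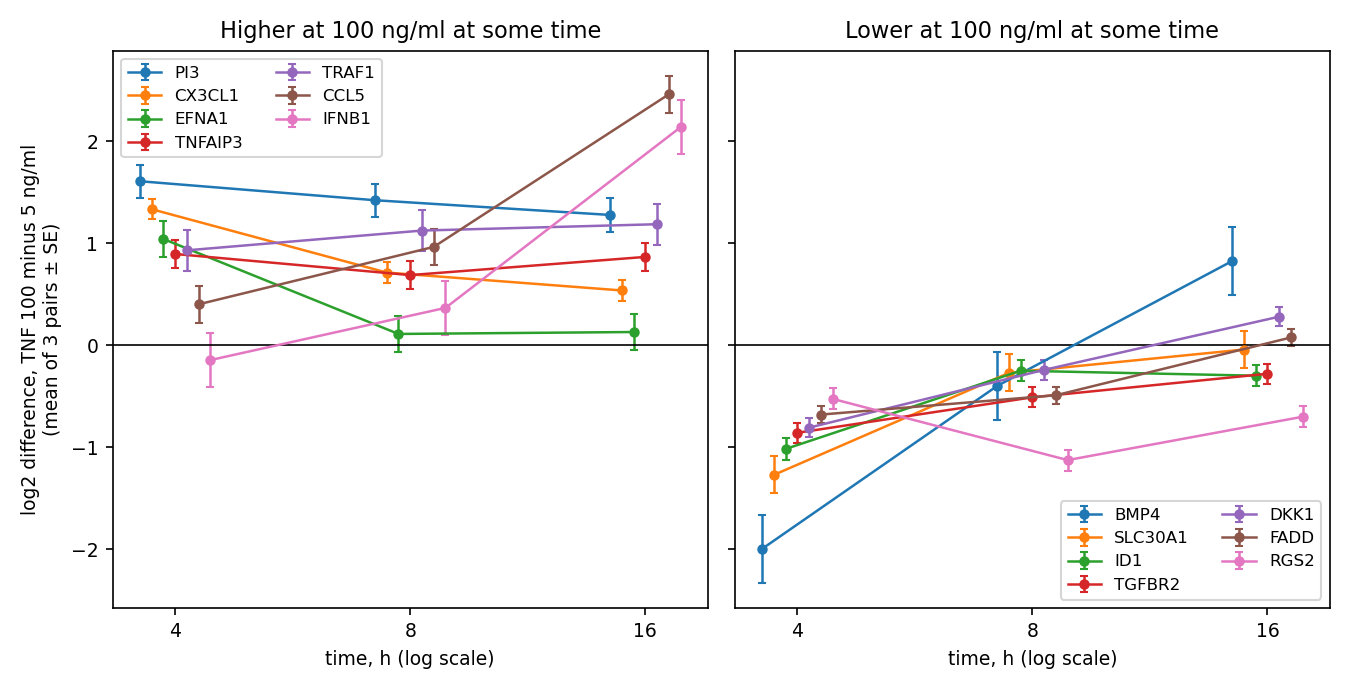
Dose difference (log2, TNF at 100 minus 5 ng/ml, mean of the 3 pairs ± SE) at 4, 8 and 16 h on a log time axis for 14 named genes, 7 in each panel. PI3, TRAF1 and TNFAIP3 stay above 0 at all times, CCL5 and IFNB1, the second near background at 4 h, reach 2.46 and 2.13 at 16 h, and BMP4, SLC30A1, ID1, DKK1 and FADD are nearer 0 or above it at 16 h.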

How the data were processed

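HT-29 cells were profiled on Affymetrix arrays with 22283 probe sets. The deposited intensity values are linear signals made with MAS5, per the submitters' processing notes, with the same trimmed mean (500.2) on all 54 arrays, so read depth does not apply and the number of arrays limits the precision. Probe sets were named from GEO's platform annotation: 19065 had 1 gene symbol, 1043 had several and 2107 had none, and only the first kind was named. From the deposited intensities, log2(signal + 12.46) was computed, the added value being the 10th percentile of all signals. The 68 control probe sets were left out, and 13422 of 22215 others were kept with a group mean of at least the median, 7.24 on the log2 scale, in 1 of 27 groups or more. A gene was represented by its brightest kept probe set, which gave 8105 genes.

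All 54 arrays were fitted by group in limma 3.58.1 (R 4.3.3; lmFit, eBayes with intensity trend), with Benjamini-Hochberg adjustment over kept probe sets at 0.05. Scan or batch labels were not used here. Named genes were, of called genes with 1 sign in all 3 pairs, those with the 12 largest rises and 12 largest falls, up to 4 called members of each list by smallest p, 18 fixed genes, the 5 largest called differences either way in the TNF-alone pair, up to 5 called genes of each test between pairs and the 6 smallest p of 16 h minus 4 h. The members and lists were chosen with earlier results of these data known. The procedure was tested on simulated data for the dose difference over the 3 pairs, with 13422 probe sets: 35.8%, 85.1% and 100% of changes of 0.5, 1 and 2 (log2) were recovered, with 10 false calls among 157. For the TNF-alone pair, 7.46%, 49.3% and 84.8% were recovered, with 3 false calls among 97. Alternatives varied the pseudocount, filter, normalization, arrays fitted, replicate block and single arrays. The replicates are labelled biological replicates. A few genes that met the naming rule are not reported here.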

Additional observations from a re-analysis of the deposited data

Results flagged for a closer look

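Between the insulin pair and the TNF-alone pair at 4 h, the effect of TNF dose differed for 4 genes (limma's moderated test of the difference, 4 arrays per pair). DDIT4, which restrains mTOR complex 1, differed by 2.00 ± 0.34 (log2, insulin pair minus TNF-alone pair, adjusted p = 0.0168), with a dose difference of 0.58 in the insulin pair and −1.42 in the TNF-alone pair. CHAC1, the glutathione-degrading enzyme, differed by 2.56 ± 0.49 (adjusted p = 0.0445), with 0.47 in the insulin pair and −2.10 in the TNF-alone pair. ID1 differed by 1.31 ± 0.25 (adjusted p = 0.0445), with −0.50 and −1.81, and HBP1 by −1.27 ± 0.25 (adjusted p = 0.0445), with −1.06 and 0.21. Insulin alone at 500 ng/ml differed from untreated cells by 1.28 for DDIT4 (adjusted p = 0.00917), 1.63 for CHAC1 (adjusted p = 0.0327), 1.11 for ID1 (adjusted p = 0.00145) and −1.65 for HBP1 (adjusted p = 5.18e-07). The insulin dose differed within the insulin pair, so its part and that of TNF cannot be told apart.

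Between 16 h and 4 h the dose difference over the 3 pairs differed for 34 genes, 21 with a higher and 13 with a lower value at 16 h, of which 10 are named. CCL5, a chemokine for T cells, differed by 2.06 ± 0.25 (16 h minus 4 h, adjusted p = 1.89e-05), with dose differences of 0.40 at 4 h and 2.46 at 16 h. The probe set used did not pass at 4 h (adjusted p = 0.461). Another CCL5 probe set did, at 0.67 over the 3 pairs (adjusted p = 0.041) and 1.37 in the TNF-alone pair (adjusted p = 0.0181). IFNB1, the gene of interferon-beta, differed by 2.28 ± 0.37 (adjusted p = 0.000999), with −0.15 at 4 h and 2.13 at 16 h. Its signal at 4 h was 6.86 to 21.9 at 100 ng/ml and 6.3 to 24.8 at 5 ng/ml, near or below the 12.46 added before taking logs, so the 4 h value is background and the size of the change is not well determined. IGFBP6, an insulin-like growth factor binding protein, differed by 0.89 (adjusted p = 0.000492) and UCP2, a mitochondrial carrier, by −0.89 (adjusted p = 0.000543). Of the genes called lower at 4 h, BMP4 differed by 2.82 ± 0.47 (adjusted p = 0.00122), DKK1 by 1.09 (adjusted p = 1.89e-05), FADD by 0.76 (adjusted p = 0.000456), SLC30A1 by 1.23 (adjusted p = 0.0182) and ID1 by 0.72 (adjusted p = 0.0145). CX3CL1 differed by −0.80 (adjusted p = 0.00238), with 1.33 at 4 h and 0.54 at 16 h. Groups of 2 arrays are too small to judge a single array as far from the others.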

How the results depend on the processing

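Of 1628 values of named genes under the alternatives for the dose difference over the 3 pairs, 1408 kept direction and side of the threshold, 199 kept the direction and lost the call, 14 kept the direction and gained a call and 7 changed sign. Of the 52 named genes called, 28 were called under every planned setting and with any single array left out. The signs that changed belonged to TNFRSF1A, which was not called, with a range of −0.2028 to 0.2156 over single arrays left out, at −0.1286, −0.08445 and −0.006676 without replicate 1 of 100 ng/ml TNF alone, with EGF and with insulin and −0.06424, −0.2028 and −0.006495 without replicate 2 of the matching groups at 5 ng/ml, and to MYC at 0.01795 with only the EGF and insulin pairs.

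The count of 148 genes over the 3 pairs was 76 (48 higher, 28 lower) with median centring, 69 (46 and 23) with only the 12 arrays, 75 (51 and 24) with the additive model of the 12 arrays, 88 (48 and 40) with only the 4 h arrays, 112 (60 and 52) with quantile normalization and 21 (11 and 10) with only the EGF and insulin pairs, a setting chosen after seeing the data. Under median centring, on the 12 arrays and on the 4 h arrays the TNF-alone count of 68 was 29, 28 and 35, the EGF pair's 9 was 0, 1 and 1, and the insulin pair's 8 was 4, 4 and 3. The 4 genes of the insulin minus TNF-alone test were 1 with a pseudocount of 50, no filter or quantile normalization and 0 with median centring, the 12 arrays, the 4 h arrays or no intensity trend. The 34 genes of 16 h minus 4 h were 59 with a stricter filter and 10 (9 higher, 1 lower) with median centring. EGF alone called 18 genes with median centring and 22 on the 4 h arrays, in place of 39. The cause of these shifts was not tested, beyond the fewer residual degrees of freedom on fewer arrays.

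Leaving out 1 array gave 92 to 150 genes over the 3 pairs, 17 to 73 for TNF alone, 0 to 9 for the EGF pair, 2 to 17 for the insulin pair, 0 to 1 and 0 to 4 for the EGF and insulin pairs minus TNF alone, 22 to 45 for 16 h minus 4 h, 215 to 417 and 93 to 190 for 100 and 5 ng/ml against untreated cells, and 37 to 41 for EGF alone. Deviations of the replicate 1 arrays from their group means correlated between groups at 0.0211 to 0.455 (median 0.192), over 0.1 in 10 of 15 pairs of groups. All were positive, so arrays with the same replicate number shared part of their deviation. The main fit did not use the replicate number. A replicate block within each time gave 297 genes (115 higher, 182 lower) over the 3 pairs, 148 for TNF alone, 30 for the EGF pair, 19 for the insulin pair, 201 for 16 h minus 4 h, 619 and 293 for 100 and 5 ng/ml against untreated cells and 75 for EGF alone. Of the named genes not called over the 3 pairs, it called CXCL1 (adjusted p = 0.0323), EGR1 (0.0245), ICAM1 (0.00693) and DDIT4 (0.0235). Signal near background limits dim genes such as BMP4, TRAF1, KLF11 and IFNB1.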
